A study of Mus musculus with 26 samples.

Results

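The splicing factor 3a and 3b genes are the subject here: Sf3b1, Sf3b2, Sf3b3, Sf3b4, Sf3b5, Sf3b6 and Phf5a, which encode the SF3B complex, and Sf3a1, Sf3a2 and Sf3a3, which encode SF3A. They were chosen by gene name, as the complex that pladienolide B acts on, and number 10 of the 55291 genes in the deposited count table. All 10 passed the filter on low counts and were among the 20953 genes tested. The RNA-seq covers mouse R1 embryonic stem cells (ESCs) grown with LIF, in 26 poly(A) libraries of 13 groups with 2 replicates each. The study induced totipotent-like cells by several routes and sequenced them with and without the transcription factor Dux or a super-enhancer that Dux activates.

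The 13 groups are as follows, each in R1 cells. ESC was untreated, and DMSO was treated with the solvent for a time the labels do not state. Pladienolide B (PlaB) was given at 4 nM for 4 days to wild-type cells (PlaB), to Dux knockdown cells (Dux KD PlaB) and to knockout cells of the super-enhancer at the Tdpoz genes (SE KO PlaB). Retinoic acid was given at 0.53 µM for 48 h to wild-type (RA), Dux knockdown (Dux KD RA) and super-enhancer knockout cells (SE KO RA). Doxycycline at 4 µg/mL for 24 h drove Dux in wild-type (Dux OE) and super-enhancer knockout cells (SE KO Dux OE), Zscan4 (Zscan4 OE), or a phase-separation-deficient Dux mutant (Dux R70A OE). Dux KD Zscan4 OE carries the treatment label "no" and no time, and SE KO RA replicate 1 is titled a knockout but has the genotype label WT, so both rest on their titles. The study's methods give short hairpin RNAs for the knockdown and Cas9 deletion for the knockout, and the labels do not say how many clones were used. The study calls the replicates of some of these comparisons biological, but the sources used here do not say for each group whether they were separate cultures, and p-values measure the spread between these libraries.

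SF3A and SF3B are parts of the U2 small nuclear ribonucleoprotein (snRNP), the particle that recognises the branch point of an intron before splicing. SF3B1, a scaffold of HEAT repeats, closes around the branch point duplex with PHF5A beside it, and PlaB binds in the pocket that these subunits form. SF3A joins SF3B to the core of the U2 particle, and mouse ESCs treated with low doses of PlaB are known to turn on genes of the 2-cell embryo.

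Levels are given as CPM, a gene's counts relative to the size of its library, after scaling by the trimmed mean of M values (TMM). Library totals ranged from 14401452 to 39402840 counts, and the members had at least 184 counts in any library, so none came near 0. Genes with an adjusted p-value under 0.05 are termed called, from the quasi-likelihood F-test of edgeR, and the adjustment is that of Benjamini and Hochberg over every gene tested. Pluripotency markers had a summed level of 3269 to 8489.8 CPM over 8 genes in the 26 libraries, but single markers, Sox2 and Nanog among them, were far lower with PlaB, as given with the PlaB results. Duxf3, the copy of Dux named in the table, had 191 and 181 counts in the PlaB libraries and 1 and 0 in those of Dux KD PlaB (adjusted p = 7.1e-11), 49 and 59 in RA and 16 and 6 in Dux KD RA (adjusted p = 0.0015), and 27 and 17 in Zscan4 OE and 1 and 0 in Dux KD Zscan4 OE (adjusted p = 1.8e-04). It had 55 and 48 counts in Dux OE, 55 and 39 in SE KO Dux OE, 0 and 0 in Dux R70A OE, 3 and 0 in ESC and 1 and 0 in DMSO, and between 2 and 45 in the other knockout libraries. Whether the table counts reads of the driven Dux transgenes is not known, so the label Dux R70A OE could not be checked on this gene, and the super-enhancer is not a gene. Replicates of SE KO PlaB and Dux KD Zscan4 OE stood furthest apart, with a chi-square per degree of freedom over genes of 30.2 and 26.1 against 1.55 to 9.81 in the other 11 groups.

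The members are spread over 9 chromosomes of the mouse genome (GRCm38), at the positions the count table gives. Sf3b1 lies on chromosome 1 from 54985169 to 55027481, and its principal transcript has 25 exons. Sf3b5 lies on chromosome 10 from 13005343 to 13009183 and is a gene of 1 exon, with no intron. Sf3a2 lies on chromosome 10 from 80798198 to 80804924 and has 9 exons, the highest GC content of the 10 transcripts at 62.2%, and the shortest introns of the 9 members that have any, with a median of 222 bases. For the coding genes tested, these medians were 50.6% GC and 1523 bases. Sf3a1 lies on chromosome 11 from 4160350 to 4182541, Sf3b2 on chromosome 19 from 5273932 to 5295455, Sf3b3 on chromosome 8 from 110810239 to 110846787 and Sf3b4 on chromosome 3 from 96172332 to 96177564. Sf3b6 lies on chromosome 12 from 4817544 to 4827659, Phf5a on chromosome 15 from 81864520 to 81871911 and Sf3a3 on chromosome 4 from 124714776 to 124732460. Of the exon bases of Sf3a2, 16.1% are also exons of Plekhj1 on the other strand. In Sf3b2, Sf3b3 and Sf3b4 the shared part was 2.84% to 3.93%, and in the remaining members 0%. The strand setting of the counting is not given in the sources used here, so reads from such stretches cannot be assigned to a strand.

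RefSeq (GRCm38.p6) promoter sequences were at hand for 7 of the 10 members, namely Sf3a1, Sf3a2, Sf3a3, Sf3b1, Sf3b2, Sf3b3 and Sf3b6. In the 250 bases before the annotated start, the core of the ETS factor motif, CCGGAAG or its reverse complement CTTCCGG, was present in 6 of these 7, against 6.91% of 32851 mouse promoters of the same length. The motif was picked after these windows had been read, so the count is a description. The matches are printed 5′ to 3′ on the gene's own strand, because they are the stretch of sequence that these promoters share, with the motif in capitals and up to 10 bases on each side inside the window. Distances are from RefSeq's start, and the Sf3a2 match lies inside the span that the count table gives that gene. The matches of Sf3a1 and Sf3a3, and that of Sf3b6 nearer the start, reach partly into such spans.
Sf3a3, chr4:124714761-124714787 (+), match starting 90 bases before the start: ccccaagacaCTTCCGGgacacgcgga
Sf3b3, chr8:110847016-110847042 (-), match starting 229 bases before the start: ccggtgggcgCTTCCGGgcttgcgagg
Sf3a2, chr10:80798649-80798675 (+), match starting 76 bases before the start: gcctttgctcCCGGAAGggatcgcttc
Sf3a1, chr11:4160337-4160353 (+), match starting 7 bases before the start: gagggcgggaCCGGAAG
Sf3b6, chr12:4817513-4817539 (+), match starting 85 bases before the start: cgccccgcccCTTCCGGtccgcaatcc
Sf3b6, chr12:4817528-4817554 (+), match starting 70 bases before the start: ggtccgcaatCCGGAAGcgttctggag
Sf3b2, chr19:5295458-5295478 (-), match starting 11 bases before the start: gattacgcaaCCGGAAGtttc
Sf3b6 held a match on each strand, and Sf3b1 held none in its window. The GC box (GGGCGG or CCGCCC) was present in 4 of the 7 promoters against 32.7% of all, the letters CCAAT or ATTGG in 2 against 33.8%, and TATAAA or TTTATA in 1 against 12.4%.

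**Figure D1:**
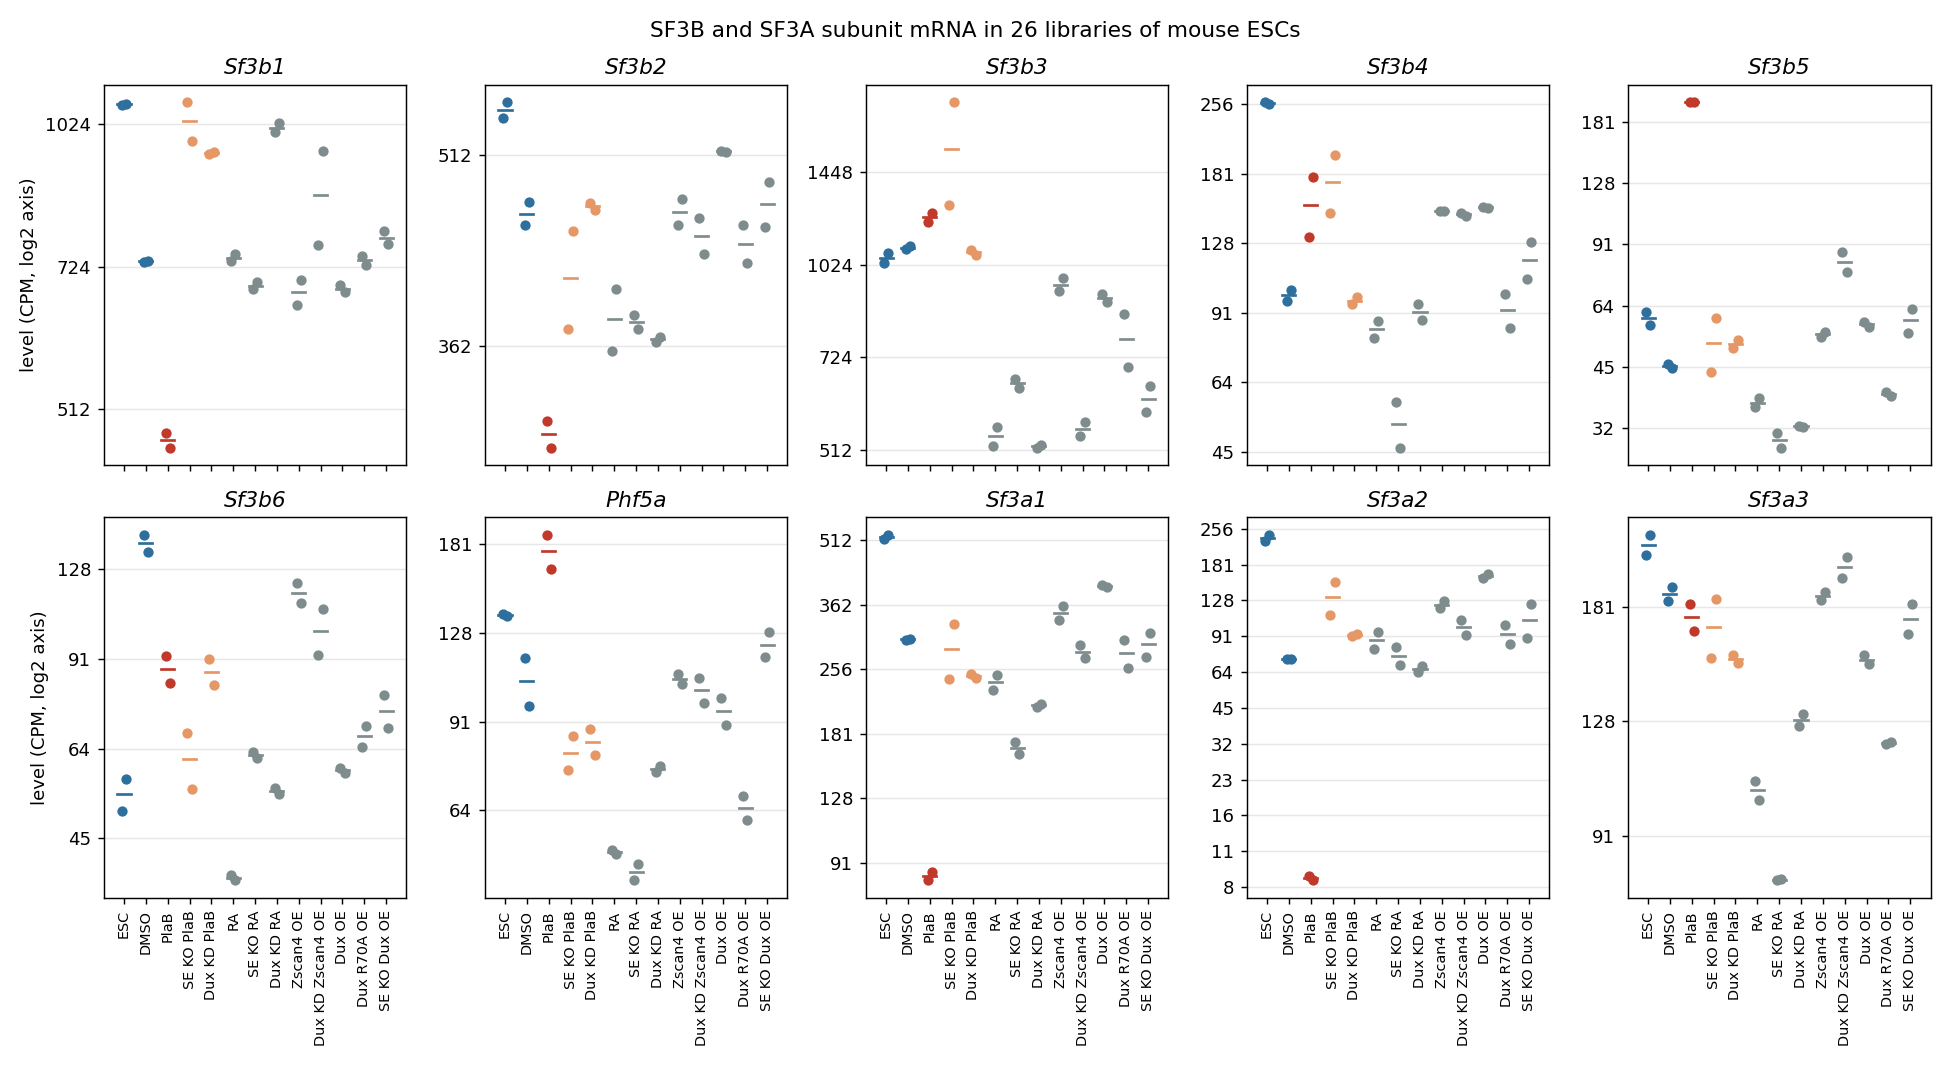
Level of each SF3B and SF3A gene in CPM (log2 axis) in the 26 libraries. Points are libraries and lines are means of the 2 replicates in each of the 13 groups, with PlaB in red, the other PlaB-treated groups in orange and the controls ESC and DMSO in blue. Both PlaB libraries are below every other library for Sf3b1, Sf3b2, Sf3a1 and Sf3a2 and above every other library for Sf3b5 and Phf5a.

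With PlaB, the subunits of its target complex moved in both directions. Compared with DMSO, 8 of the 10 members were called, 3 higher and 5 lower, and 77.1% of all genes tested were called in the same comparison, 41.7% higher and 35.4% lower. The count of members is thus close to the share of all genes. The log2 fold changes ran from -3.05 for Sf3a2 to 2.15 for Sf3b5, with a median of -0.34 over the members and 0.22 over all genes. Of the members, 3 changed by at least 1 on this scale, as did 58.9% of all genes. The PlaB and DMSO libraries did not overlap in any of the 10 members, and neither did they in 87.6% of all genes. A lack of overlap between these groups is thus common to most genes.

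Sf3a2 encodes the SF3A subunit with a zinc finger that sits at the U2 core. It was at 72.4 and 72.5 CPM in the DMSO libraries and at 8.91 and 8.53 CPM in the PlaB libraries. Both PlaB libraries were thus far below both DMSO libraries, and the replicates of each group lay close together. The log2 fold change was -3.05 (SE 0.16, adjusted p = 1.1e-15), and 6.69% of all genes fell further. Plekhj1, whose exons overlap those of Sf3a2 on the other strand, had a log2 fold change of 1.37 in the other direction (adjusted p = 5.2e-11). Sf3a1, the SF3A subunit with SURP domains and a ubiquitin-like domain, was at 299 and 301 CPM with DMSO and 82.5 and 86.2 CPM with PlaB, a log2 fold change of -1.83 (SE 0.10, adjusted p = 4.7e-15). The groups did not overlap, and the PlaB libraries were the lowest of the 26 for this gene too. Sf3a3, the third SF3A subunit, was at 184 and 192 CPM and 183 and 168 CPM. Its log2 fold change of -0.10 (95% interval -0.27 to 0.06, adjusted p = 0.24) was not called, and its sign depended on the scaling, at 0.29 with upper-quartile factors and 0.15 with library size only.

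Within SF3B the direction differed between subunits. Sf3b5, the smallest subunit, was at 46.1 and 44.9 CPM with DMSO and at 202 and 202 CPM with PlaB, while the highest of the 24 other libraries was at 86.5 CPM. Its log2 fold change of 2.15 (SE 0.10, adjusted p = 1.4e-16) was the only rise of at least 1 among the members. Phf5a, which lines the PlaB pocket, was at 116 and 96.1 CPM and 188 and 164 CPM, a log2 fold change of 0.73 (SE 0.09, adjusted p = 9.5e-08). Sf3b4, an RNA-binding subunit that contacts the pre-mRNA upstream of the branch point, was at 96.3 and 101 CPM and 132 and 178 CPM, a log2 fold change of 0.65 (SE 0.13, adjusted p = 5.0e-05). For these 3 subunits the PlaB libraries were above both DMSO libraries.

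Sf3b1, the scaffold that PlaB binds, moved the other way. It was at 733 and 735 CPM with DMSO and 484 and 466 CPM with PlaB, a log2 fold change of -0.63 (SE 0.08, adjusted p = 7.9e-08). Sf3b2, a subunit that binds Sf3b4 and contacts RNA near the branch point, was at 451 and 469.9 CPM and 316 and 301 CPM, with a log2 fold change of -0.58 (SE 0.08, adjusted p = 3.2e-07). Sf3b6, also known as p14, an RNA-binding subunit that lies near the branch point, was at 146 and 137 CPM and 91.5 and 82.4 CPM, and its log2 fold change was -0.70 (SE 0.10, adjusted p = 4.7e-07). In each of the 3 genes the PlaB libraries were below both DMSO libraries. Sf3b3, the subunit of beta propellers, was at 1084 and 1096 CPM and 1202 and 1240.5 CPM. Its log2 fold change of 0.16 (95% interval -0.06 to 0.39, adjusted p = 0.17) was not called in the fit over all groups with TMM, but was called as higher with each of the other scalings, by DESeq2, and with TMM in a fit of only the groups compared (adjusted p = 0.0088). Without the filter on low counts it was -0.0026 and not called.

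The scaling matters for the small changes. In PlaB against DMSO, RLE size factors, upper-quartile factors and library size alone moved the median log2 fold change of all genes by 0.15, 0.39 and 0.26 relative to TMM. The 8 calls named above kept their direction and remained called under all 3. With untreated ESCs in place of DMSO as the control, Sf3b4 and Sf3b6 reversed, to -0.73 and 0.70.

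The PlaB libraries also differed from DMSO in markers of cell state. Of 8 pluripotency markers, 6 fell and 2 rose. Sox2 was at 594 and 590.5 CPM with DMSO and 21.6 and 30.8 CPM with PlaB, a log2 fold change of -4.50, and those of Esrrb, Nanog, Klf4, Pou5f1 and Tdgf1 lay between -3.65 and -1.78. Dppa5a and Zfp42 rose, by 0.86 and 0.40 on the log2 scale, and carried most of the summed level in PlaB. The summed level of 9 genes of 2-cell-like cells, Zscan4c among them, was 5.32 to 6.98 CPM with DMSO and 7323 to 7576 CPM with PlaB, and all 9 were called higher. The summed level of 6 trophectoderm markers was 28.0 to 29.1 CPM and 436 to 448 CPM, and 4 of the 5 that could be tested rose and 1 fell. Of 7 primitive endoderm markers, 4 rose and 1 fell, and of 6 neural genes 3 fell (Sox1 -4.77, Nes -3.35 and Map2 -2.97). Of 5 fibroblast markers tested 2 rose and 1 fell, at summed levels of 9.78 to 34.9 CPM, and the mesoderm markers summed to 1.93 to 2.66 CPM. The part of these cell states in the changes of the members was not tested. In such bulk RNA, fewer cells of a type and less RNA per cell cannot be told apart.

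**Figure D2:**
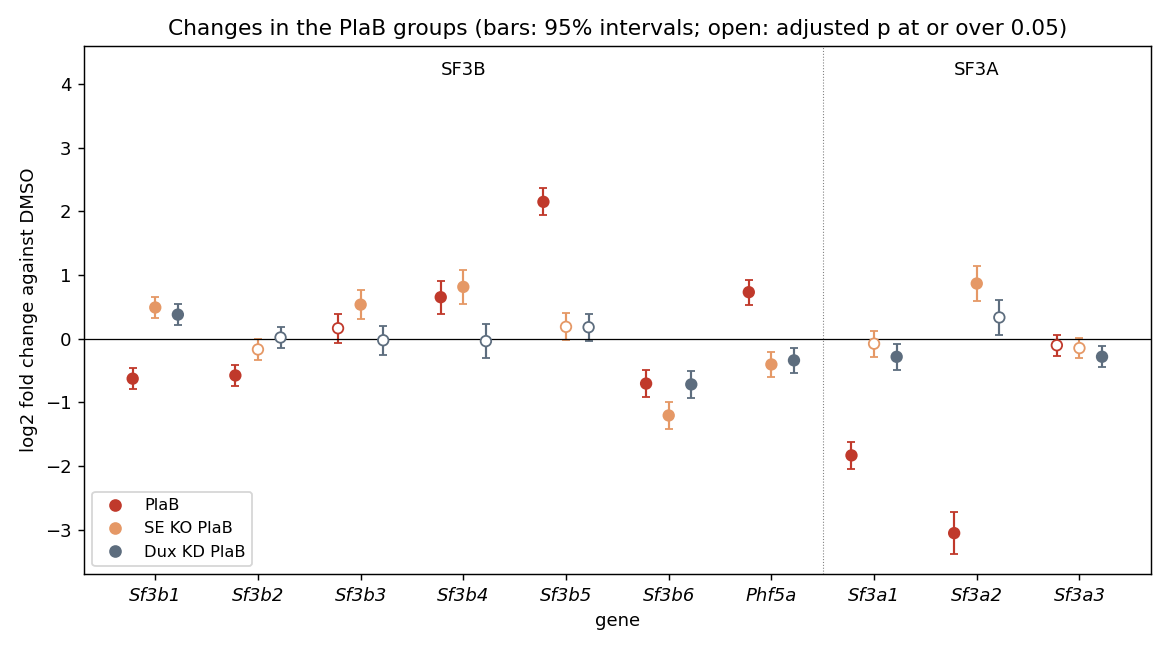
Log2 fold change against DMSO of each member in PlaB (red), SE KO PlaB (orange) and Dux KD PlaB (grey), with 95% intervals from the edgeR fit. Filled points have an adjusted p under 0.05, and the 3 comparisons share the 2 DMSO libraries. Of the 3 groups, Sf3b5, Sf3a1 and Sf3a2 are past 1 in size only in PlaB.

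In PlaB-treated cells with Dux knockdown or super-enhancer knockout, the log2 fold changes of Sf3a1, Sf3a2 and Sf3b5 against DMSO were all under 1 in size. These cells had no DMSO group of their own. With untreated ESCs in place of DMSO, Sf3a2 in Dux KD PlaB was at -1.36 and Sf3b6 at 0.68. Sf3b4 was at 94.6 and 98.0 CPM in Dux KD PlaB and 259 and 257 CPM in ESC. Sf3a1 was at 249 and 244 CPM and at 516 and 526 CPM. Compared with DMSO, 5 members were called in Dux KD PlaB, 1 higher and 4 lower, against 34.7% of all genes (17.7% higher and 17.1% lower). No member changed by 1 or more on the log2 scale against DMSO, and the log2 fold changes ran from -0.72 for Sf3b6 to 0.38 for Sf3b1. Leaving out Dux KD PlaB replicate 2 left 2 calls, those of Sf3b1 and Sf3b6, and leaving out DMSO replicate 1 (Phf5a and Sf3a1 lost) or DMSO replicate 2 (Sf3a1 and Sf3a3 lost) left 3. In SE KO PlaB, 6 members were called, 4 higher and 2 lower, against 56.1% of all genes (29.6% higher and 26.5% lower). The log2 fold changes ran from -1.21 for Sf3b6 to 0.87 for Sf3a2. The SE KO PlaB replicates stand apart, and 7 members were called without replicate 1 and 9 without replicate 2.

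The direct comparison among PlaB-treated cells gave the size of these differences. Between Dux KD PlaB and PlaB, 8 members were called, 4 higher and 4 lower with the knockdown, against 74.3% of all genes (35.5% higher and 38.8% lower). Between SE KO PlaB and PlaB, 8 were called, 5 higher and 3 lower, against 72.0% of all genes (35.5% higher and 36.5% lower), with 9 and 7 without SE KO PlaB replicate 1 and 2. Sf3a2 was at 90.4 and 92.3 CPM in Dux KD PlaB and at 112 and 153 CPM in SE KO PlaB. Each of these 4 libraries was above both DMSO libraries and far above both PlaB libraries. Against PlaB, the libraries did not overlap in 9 members with the knockdown and 8 with the knockout. The shares of all genes were 86.9% and 82.0%. The log2 fold changes against PlaB were 3.39 (SE 0.16, adjusted p = 1.3e-16) and 3.92 (SE 0.16, adjusted p = 5.7e-18). Sf3a1 was at 249 and 244 CPM and 243 and 327 CPM, or 1.55 (adjusted p = 1.9e-13) and 1.75 (adjusted p = 1.4e-14) on the log2 scale.

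Sf3b5 was at 50.4 and 52.8 CPM in Dux KD PlaB and at 44.1 and 59.6 CPM in SE KO PlaB, below both PlaB libraries. Its log2 fold changes against PlaB were -1.97 (SE 0.10, adjusted p = 9.8e-16) and -1.96 (SE 0.10, adjusted p = 8.8e-16). Against DMSO they were 0.18 (95% interval -0.03 to 0.40) and 0.19 (95% interval -0.03 to 0.40), and neither was called. Phf5a was at 88.0 and 79.5 CPM and 74.8 and 85.4 CPM, below the PlaB and the DMSO libraries, with log2 fold changes against PlaB of -1.07 (adjusted p = 9.5e-11) and -1.14 (adjusted p = 2.6e-11).

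Sf3b1 was at 952 and 956 CPM in Dux KD PlaB and 1079 and 983 CPM in SE KO PlaB, above every PlaB and DMSO library. The log2 fold changes were 1.01 (adjusted p = 1.0e-11) and 1.12 (adjusted p = 1.1e-12) against PlaB, and 0.38 (adjusted p = 5.1e-04) and 0.49 (adjusted p = 8.4e-06) against DMSO. Sf3b6 stayed below DMSO in all 3 PlaB-treated groups, at 90.4 and 81.9 CPM with Dux KD and 68.0 and 54.8 CPM with SE KO. Between Dux KD PlaB and PlaB its log2 fold change was -0.01 (95% interval -0.22 to 0.19), while between SE KO PlaB and PlaB it was -0.50 (adjusted p = 8.6e-05). In SE KO PlaB the fall of Sf3b6 was larger than in PlaB. With untreated ESCs in place of DMSO as the control, Sf3b1 turned to -0.17 in Dux KD PlaB and -0.059 in SE KO PlaB, neither called, and Sf3b6 to 0.68 and 0.19, of which the first was called. Sf3b4 was at 94.6 and 98.0 CPM with Dux KD (log2 fold change against DMSO -0.04, 95% interval -0.30 to 0.23) and at 149 and 199 CPM with SE KO, where the log2 fold change against DMSO was 0.81 (adjusted p = 4.7e-06).

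Among the remaining members, Sf3b2 was at 469.5 and 463 CPM with Dux KD and 373 and 446 CPM with SE KO, or 0.60 (adjusted p = 2.0e-07) and 0.41 (adjusted p = 5.6e-05) against PlaB. Sf3b3 was at 1280.1 and 1879 CPM in the 2 SE KO PlaB libraries, which lie far apart, and its call against PlaB (log2 fold change 0.37) was lost without SE KO PlaB replicate 2, at 0.093. Sf3a3 was at 157 and 153 CPM with Dux KD and 155 and 185 CPM with SE KO. Its difference between Dux KD PlaB and PlaB, -0.18 (adjusted p = 0.044), was lost without PlaB replicate 1, at -0.02, and without either Dux KD PlaB library, at -0.17 and -0.055. The summed level of the 2-cell-like markers moved with these groups, at 6.66 to 6.70 CPM in Dux KD PlaB and 539.9 to 597 CPM in SE KO PlaB. So did Sox2, at 722 and 722 CPM in Dux KD PlaB and 393 and 412 CPM in SE KO PlaB. Their part in these differences was not tested.

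**Figure D3:**
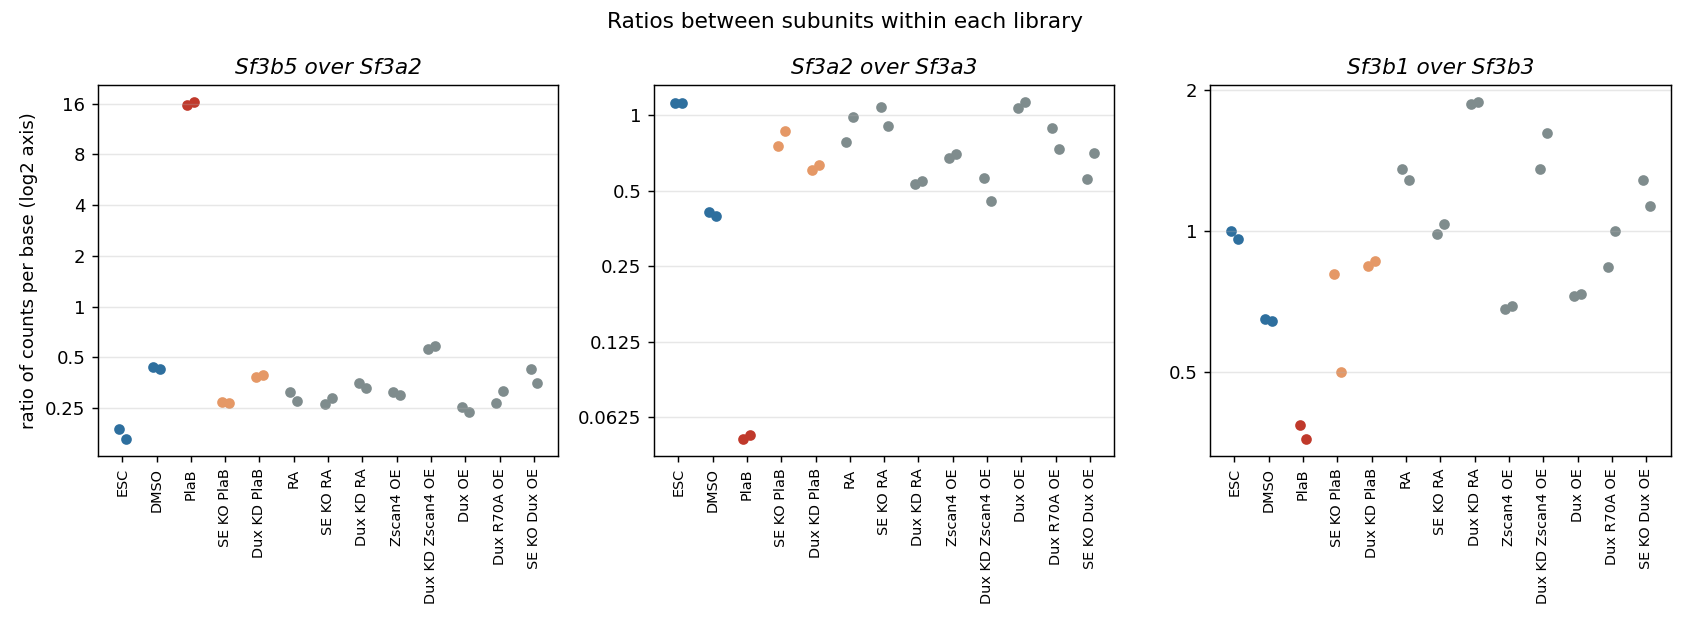
Ratio of counts per exon base between subunit genes within each library (log2 axis), with points for the 26 libraries and the colours of the plot of levels. The PlaB libraries are highest for Sf3b5 over Sf3a2 and lowest for Sf3a2 over Sf3a3 and Sf3b1 over Sf3b3. Sf3b5 and Sf3a2 are the members that rose and fell most in PlaB against DMSO.

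Ratios between subunits within a library do not depend on the scaling between libraries. Per exon base, Sf3b5 had 0.441 and 0.428 times the counts of Sf3a2 in the DMSO libraries and 15.7 and 16.4 times in the PlaB libraries. In the 12 groups other than PlaB the ratio lay between 0.165 and 0.584. This pair sets the member that rose most in PlaB against DMSO over the one that fell most, so a wide gap follows from the choice. Among the SF3A subunits, Sf3a2 over Sf3a3 was 0.412 and 0.395 with DMSO, 0.0511 and 0.0532 with PlaB, 0.605 and 0.633 in Dux KD PlaB and 0.756 and 0.864 in SE KO PlaB. Phf5a over Sf3b1, the 2 genes of the PlaB pocket, was 0.831 and 0.686 with DMSO, 2.04 and 1.85 with PlaB and 0.485 and 0.436 in Dux KD PlaB. Sf3b1 over Sf3b3 was 0.649 and 0.644 with DMSO and 0.386 and 0.361 with PlaB, the lowest of the 13 groups. Sf3b6 over Sf3b1 overlapped, at 0.796 and 0.743 with DMSO and 0.754 and 0.704 with PlaB. So did Sf3b2 over Sf3b3 between PlaB, at 0.421 and 0.388, and SE KO PlaB, at 0.467 and 0.380. In the other pairs computed PlaB was the highest or the lowest group. These ratios use the exon lengths of the table, in which all annotated exons of a gene are merged, whatever isoforms the cells used.

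On the per-length scale (CPM per 1000 exon bases), Sf3b3 was the highest member with DMSO at 99.8 ± 0.754 (SD, n = 2) and Sf3b5 the lowest at 11.8 ± 0.223 (SD, n = 2). In PlaB the order ran from Sf3b3 at 112 ± 2.48 to Sf3a2 at 3.28 ± 0.101 (SD, n = 2 each), and Sf3b5 stood in the middle at 52.6 ± 0.0112 (SD, n = 2), or near the bottom of the order with the length of the principal transcript. Sf3b5 was the lowest member in each of the 12 groups other than PlaB. The length of the principal transcript cannot check this rank. Sf3b5 keeps its length of 3841 bases there, and every other member becomes shorter and so rises per length. Per length, the highest member was 8.42 times the lowest with DMSO and 34.1 times with PlaB.

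**Figure D4:**
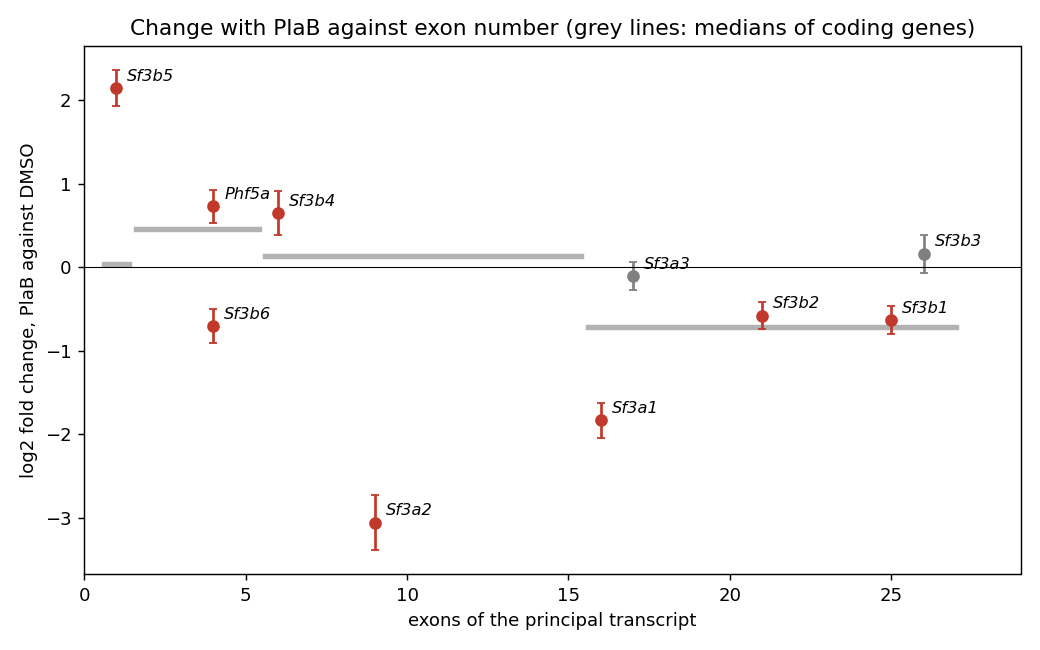
Log2 fold change in PlaB against DMSO of the 10 members, by the number of exons of the principal transcript, with 95% intervals. Red points are called, grey points are not, and grey lines are the medians of all coding genes tested with 1, 2 to 5, 6 to 15 and over 15 exons. Sf3b5, with 1 exon, is the highest of the members, and Sf3a2, with 9 exons, the lowest.

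Gene structure was set beside the PlaB response, with the classes chosen when the values were known. Of 506 coding genes with 1 exon, 40.7% were called higher and 36.6% lower in PlaB than in DMSO, with a median log2 fold change of 0.04. Sf3b5 is such a gene, and its log2 fold change of 2.15 is far above that median. Of 3480 coding genes with over 15 exons, 23.2% were higher and 59.5% lower, with a median of -0.72. The members of this class are Sf3b1, Sf3b2, Sf3b3, Sf3a1 and Sf3a3, whose log2 fold changes lay between -1.83 and 0.16. Sf3a2 lies in the class of 6 to 15 exons, which had a median of 0.14 over 7326 genes. The counts are per gene and hold no junctions or introns, so splicing of the members was not analysed here.

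RA, with a summed level of the 2-cell-like markers of 486 to 592 CPM, gave another pattern. Compared with DMSO, 7 members were called, all lower, against 58.9% of all genes (32.3% higher and 26.6% lower). The members' median log2 fold change was -0.32 and that of all genes 0.10. Sf3b6 fell most, from 146 and 137 CPM to 39.3 and 38.5 CPM, a log2 fold change of -1.86 (SE 0.10, adjusted p = 2.7e-14). DMSO had the highest group mean of this gene, and ESC was at 50.4 and 57.0 CPM. Sf3b3 was at 519 and 558 CPM, with -1.02 (SE 0.11, adjusted p = 1.1e-08). Phf5a and Sf3a3 followed, at -0.96 (adjusted p = 2.8e-09) and -0.86 (adjusted p = 6.9e-10). Sf3b1 was at 733 and 746 CPM, not distinguishable from DMSO (log2 fold change 0.01, 95% interval -0.15 to 0.18). With untreated ESCs as the control, Sf3b1 and Sf3a2 were called lower, at -0.54 and -1.43. With library size only, Sf3b2, Sf3b5 and Sf3a1 were at -0.08, -0.10 and -0.14 against DMSO and not called. The calls of Sf3b2, Sf3b5 and Sf3a1, of -0.28, -0.30 and -0.33, were lost without RA replicate 1, and 5 members were called then.

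PlaB and RA, at their own doses and times, differed in all 10 members, 6 higher and 4 lower with PlaB, against 76.2% of all genes (37.6% higher and 38.6% lower). The largest differences were again those of Sf3a2, -3.32 (adjusted p = 1.5e-16), and Sf3b5, 2.45 (adjusted p = 9.7e-18). The treatments differ in agent, dose and length, which cannot be told apart here. Sf3b2, at -0.30, was not called with RLE size factors and changed sign with upper-quartile factors, where it was not called either.

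Under RA, no member differed by 1 or more on the log2 scale with the knockdown or the knockout. In Dux KD RA against RA, 5 members were called, 4 higher and 1 lower, against 37.3% of all genes (18.0% higher and 19.2% lower). The rises were those of Sf3b6 (0.48), Phf5a (0.47), Sf3b1 (0.46) and Sf3a3 (0.31), and Sf3a2 was lower at -0.40. Without RA replicate 2, 3 calls were left, and the call of Sf3a2 was also lost without either Dux KD RA library. In SE KO RA against RA, 6 were called, 2 higher and 4 lower, against 46.0% of all genes (21.3% higher and 24.7% lower). Sf3b6 rose, with a log2 fold change of 0.68 (adjusted p = 5.9e-06), and Sf3b4 had a log2 fold change of -0.68 (adjusted p = 1.1e-04), from 80.0 and 86.9 CPM to 57.9 and 46.2 CPM. Without SE KO RA replicate 1, the library with the label conflict, 5 were called, and without SE KO RA replicate 2 or RA replicate 2, 4.

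The effect of the knockdown and of the knockout was also compared between the inductions, as the difference of 2 differences. For the Dux knockdown, 9 of the 10 members differed between PlaB and RA, against 65.9% of all genes, and for the super-enhancer knockout 9 against 63.0%. Sf3a2 had the largest differences, 3.79 (SE 0.21, adjusted p = 6.7e-15) for the knockdown and 4.14 (SE 0.21, adjusted p = 8.9e-16) for the knockout. Sf3b3 had a difference of -0.14 (95% interval -0.46 to 0.19) and 0.08 (95% interval -0.24 to 0.40), and neither was called. Without SE KO RA replicate 1, whose labels conflict, 9 members were called for the knockout, and without SE KO PlaB replicate 1 and 2, 10 and 8. These contrasts share the PlaB and RA libraries.

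**Figure D5:**
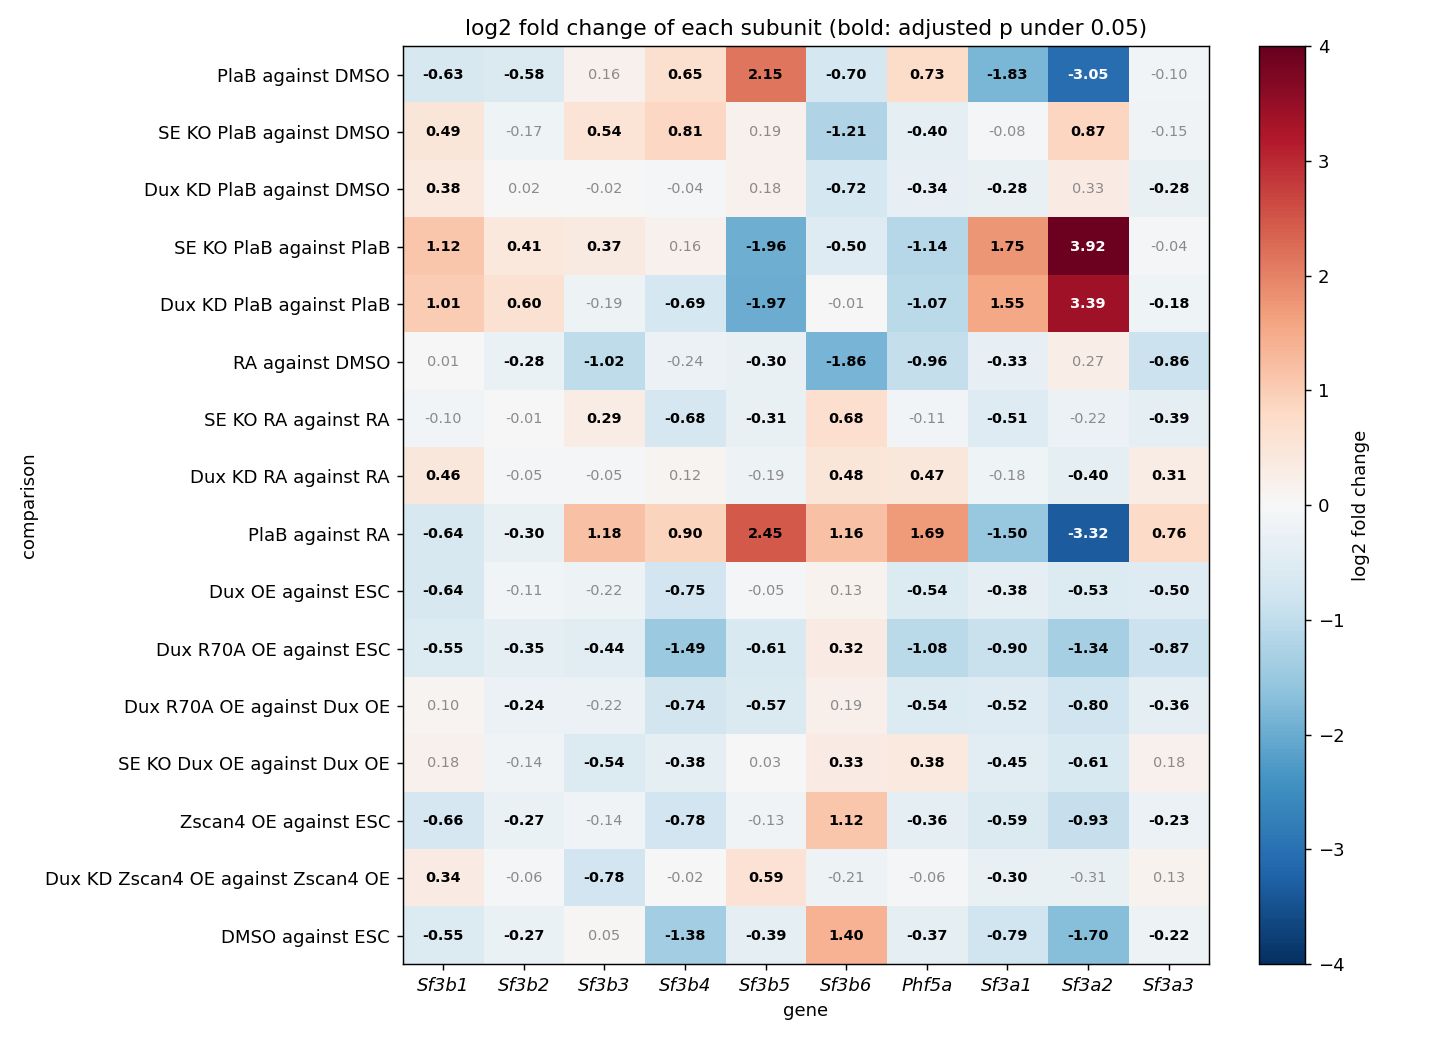
Log2 fold change of each member (columns) in the 16 comparisons (rows), with red for higher and blue for lower in the group named before the word against. Bold numbers have an adjusted p under 0.05, and comparisons that share a group are not independent. The darkest cells are those of Sf3a2 in the comparisons that include PlaB, from -3.32 to 3.92.

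The 2 control groups differed from each other in the members. Between DMSO and ESC, 9 members were called, 1 higher and 8 lower with DMSO, against 43.6% of all genes (21.2% higher and 22.4% lower). The call of Sf3a3 was lost with library size only, at -0.14, and without the filter on low counts, at -0.16. Sf3a2 was at 228 and 242 CPM in ESC, above both DMSO libraries, with a log2 fold change of -1.70 (SE 0.14, adjusted p = 1.5e-10). Sf3b4 was at 259 and 257 CPM in ESC, with -1.38 (SE 0.13, adjusted p = 1.9e-09). Sf3b6 went the other way, from 50.4 and 57.0 CPM in ESC to 146 and 137 CPM with DMSO, a log2 fold change of 1.40 (SE 0.10, adjusted p = 4.2e-11). The labels give no time for DMSO and no batch, so the solvent and other differences between these libraries cannot be told apart.

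With Dux OE, changes against ESC were smaller than 1 on the log2 scale in all 10 members. Of these, 6 were called, all lower, against 27.5% of all genes (14.7% higher and 12.8% lower). They were Sf3b4 (-0.75), Sf3b1 (-0.64), Phf5a (-0.54), Sf3a2 (-0.53), Sf3a3 (-0.50) and Sf3a1 (-0.38). Sf3b5 was at 58.5 and 56.8 CPM against 61.7 and 57.5 CPM in ESC, a log2 fold change of -0.05 (95% interval -0.26 to 0.16). Against DMSO in place of ESC, 5 members turned direction and were called, with Sf3a2 at 1.16, Sf3b4 at 0.63, Sf3a1 at 0.41 and Sf3b5 at 0.34, all called higher, and Sf3b6 at -1.27, called lower. In the Dux OE libraries the summed level of the 2-cell-like markers was 3629 to 3723 CPM, between those of ESC and PlaB.

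In Dux R70A OE against Dux OE, 7 members were called, all lower, against 38.7% of all genes (17.3% higher and 21.4% lower). The calls of Sf3b2 and Sf3a3 were lost with library size only, at -0.05 and -0.17. That of Sf3b2 was also lost without the filter on low counts, at -0.16. Sf3a2 was at 159 and 165 CPM in Dux OE and 101 and 84.3 CPM in Dux R70A OE, a log2 fold change of -0.80 (SE 0.13, adjusted p = 2.5e-05), and Sf3b4 changed by -0.74 (adjusted p = 4.6e-05). Against ESC, all 10 members were called in Dux R70A OE, 9 lower and 1 higher, against 44.7% of all genes (21.6% higher and 23.0% lower). With library size only, Sf3b2 and Sf3b3 were at -0.12 and -0.20 and not called. Sf3b6, the member that was higher, was at 0.32, and at 0.23 without ESC replicate 1. Sf3b4, Sf3a2 and Phf5a fell most, with log2 fold changes of -1.49 (adjusted p = 5.2e-10), -1.34 (adjusted p = 6.2e-09) and -1.08 (adjusted p = 1.0e-09). With DMSO as the control instead, 5 members were called, Sf3a2 was higher at 0.36, Sf3b6 lower at -1.08 and Sf3b4 at -0.11 and not called. The summed level of the 2-cell-like markers was 0.942 to 1.02 CPM in Dux R70A OE and 25.3 to 31.7 CPM in ESC, and its part in these differences was not tested.

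In SE KO Dux OE against Dux OE, 6 members were called, 2 higher and 4 lower, against 25.4% of all genes (11.5% higher and 14.0% lower). Without Dux OE replicate 2 or SE KO Dux OE replicate 1, 3 were left. The largest fall was that of Sf3a2, from 159 and 165 CPM to 88.6 and 123 CPM, a log2 fold change of -0.61. Sf3b3 fell from 916 and 889.6 CPM to 589.7 and 650.1 CPM (-0.54 on the log2 scale, adjusted p = 6.5e-04), and Sf3a1 had a log2 fold change of -0.45 (adjusted p = 0.0012). Both calls held without each library in turn.

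With Zscan4 OE, 8 members were called against ESC, 1 higher and 7 lower, against 38.6% of all genes (18.9% higher and 19.6% lower). The calls of Sf3b2, Phf5a and Sf3a3 were lost with library size only, at -0.11, -0.21 and -0.07. Sf3b6 rose to 122 and 112 CPM, a log2 fold change of 1.12 (SE 0.10, adjusted p = 3.6e-09), and Sf3a2 fell to 119 and 127 CPM, with -0.93 (SE 0.13, adjusted p = 2.7e-06). Against DMSO in place of ESC, 3 members were called, all turned in direction, with Sf3a2 higher at 0.76, Sf3b4 higher at 0.60 and Sf3b6 lower at -0.28. In Dux KD Zscan4 OE against Zscan4 OE, 4 were called, 2 higher and 2 lower, against 32.6% of all genes (16.0% higher and 16.7% lower). Sf3b3 fell from 927 and 972 CPM to 539.7 and 567 CPM (-0.78, adjusted p = 4.5e-06), and Sf3b5 rose from 53.7 and 55.1 CPM to 86.5 and 77.5 CPM (0.59, adjusted p = 6.1e-05). Both calls held without each of the 4 libraries in turn, also those of Dux KD Zscan4 OE that stand apart, whereas a fit of only the groups compared left only these 2 calls.

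Ordered by group mean, ESC had the highest level of Sf3b1, Sf3b2, Sf3b4, Sf3a1, Sf3a2 and Sf3a3. PlaB had the lowest level of Sf3b1, Sf3b2, Sf3a1 and Sf3a2 and the highest of Sf3b5 and Phf5a. How many of all genes had their lowest or highest mean in PlaB was not counted. In PlaB against DMSO 77.1% of all genes were called. SE KO RA had the lowest level of Sf3b4, Sf3b5, Phf5a and Sf3a3, RA that of Sf3b6 and Dux KD RA that of Sf3b3. The highest group mean was 26.9 times the lowest for Sf3a2, 6.75 times for Sf3b5 and 6.18 times for Sf3a1, and at the other end 1.80 times for Sf3b2. For Sf3a2 the means ran from 235 ± 9.65 CPM in ESC through 162 ± 3.97 in Dux OE to 66.1 ± 2.79 in Dux KD RA and 8.72 ± 0.270 in PlaB (SD, n = 2 each), and 8 of the 12 neighbouring pairs in this order overlapped between replicates. Among the 4 that did not were ESC and Dux OE at the top and Dux KD RA and PlaB at the bottom. For Sf3b5, 4 of the 12 pairs overlapped, and the widest step was that from 82.0 ± 6.37 CPM in Dux KD Zscan4 OE to 202 ± 0.0431 CPM in PlaB (SD, n = 2 each). Over the 10 members, between 4 and 8 of the 12 pairs overlapped.

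The members' profiles over the 13 groups were not alike. The Pearson r of each member with the mean profile of all 10, of which it is a part, lay between 0.321 for Sf3b5 and 0.889 for Sf3a3, and r with Sf3b1 lay between -0.484 for Sf3b5 and 0.685 for Sf3a2. These are descriptions over 13 group means that share the same libraries. Among 9761 other genes, each at 3 or more in average log2 CPM, the profiles most like the members' mean were those of Zfp473 (r = 0.956), Adat1 (0.955) and Zscan10 (0.955). Those most like Sf3b1 were Hp1bp3 (0.902), Pank1 (0.885) and Map2k4 (0.870).

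Other genes of the spliceosome were counted by list, with the lowest and the highest log2 fold change of each list named. Of 78 such genes, 27 were called higher and 38 lower in PlaB than in DMSO, or 34.6% and 48.7%, against 41.7% and 35.4% of all genes, with a median log2 fold change of -0.20 against 0.22 over all genes. A gene in several lists counts once in this total, which includes the genes of the minor spliceosome given further below. Among 16 factors that recognise the branch point and the 3′ splice site or associate with U2, 5 rose and 10 fell. They ran from U2af2, which binds the polypyrimidine tract, at -2.90 to Sugp1, a partner of SF3B1, at 1.78. The U2 core proteins split, with Snrpa1 at 1.86 and Snrpb2 at -0.67. Of 17 genes of the U5 and tri-snRNP, 3 rose and 12 fell, from the helicase gene Ddx23 at -3.54 to Snrnp40 at 1.65. Of 8 U1 genes, 1 rose (Snrpa, 0.38) and 4 fell, most of all Luc7l2 (-2.30). Of 8 Sm protein genes, 4 rose and 2 fell, from Snrpd3 at -0.40 to Snrpn at 2.72. In the Prp19 complex and its partners, 9 of 16 rose and 4 fell, from Prpf19 itself at -2.07 to Snw1 at 1.34. In a list of 5 spliceosomal helicases, which shares Dhx15 and Aqr with lists above, 1 rose (Dhx16, 1.34) and 3 fell. The lowest was Dhx15 (-1.50). In Dux KD PlaB against DMSO, 14 of the 78 were higher and 18 lower (17.9% and 23.1%, against 17.7% and 17.1% of all genes). In SE KO PlaB, 12 were higher and 29 lower (15.4% and 37.2%, against 29.6% and 26.5%). In RA against DMSO, 53 were lower and 6 higher (67.9% and 7.69%, against 26.6% and 32.3%).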

How the data were processed

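Poly(A) RNA libraries made with the NEBNext Ultra II RNA kit were sequenced from 26 samples of mouse R1 ESCs. The authors deposited raw counts per gene for 55291 genes, and the submitters' processing notes name FastQC, Trimmomatic, STAR, featureCounts, DESeq2 and the mm10 build, without versions or a strand setting. The table also holds merged exon lengths, used per 1000 bases. Every column was matched to a sample by its title, and all 26 were used.

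The test was the quasi-likelihood F-test of edgeR 4.0.16 (R 4.3.3), with TMM scaling and filterByExpr, fitted once to the 13 groups together so that they share an estimate of the spread. P-values were adjusted over 20953 genes by the Benjamini-Hochberg method, and called at 0.05. The prior count for fold changes was 0.125. There were 16 pairwise and 2 interaction contrasts. The pipeline was tested on simulated data. Alternatives were RLE, upper-quartile and library-size scaling, no filter, DESeq2 1.42.0, a replicate block, only the groups compared, the other control, and leaving out each library. Transcript structures came from GENCODE M21, whose coordinates equal those of the table for 99.3% of shared gene names, and promoters from RefSeq.

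The members and lists were chosen with earlier results of these data known. All members were named in PlaB against DMSO, and only some of them in several other comparisons. Other spliceosome genes were named only as the lowest or highest of their list in PlaB against DMSO. Profiles most like the members' were named by Pearson r over group means of log2 CPM. Depth was 14401452 to 39402840 counts a library, so 3 counts, set here as the floor, equal 0.0761 to 0.208 CPM.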

Additional observations from a re-analysis of the deposited data

Results flagged for a closer look

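The gap between Dux knockdown and wild-type cells differed between PlaB and RA in 9 members (edgeR, all adjusted p under 0.05 with TMM). This tested the difference itself, which was called for 65.9% of all genes. The inductions also differ in agent, dose and length, which cannot be told apart. The knockdown effect under PlaB minus that under RA, on the log2 scale, was 0.55 for Sf3b1, 0.65 for Sf3b2, 1.73 for Sf3a1 and 3.79 for Sf3a2. These 4 members were higher with the knockdown under PlaB. It was -0.81 for Sf3b4, -1.78 for Sf3b5, -0.50 for Sf3b6, -1.54 for Phf5a and -0.49 for Sf3a3. The difference of Sf3b6 was not called without PlaB replicate 1 or without Dux KD PlaB replicate 2, nor without the filter on low counts, at -0.33. With upper-quartile factors those of Sf3b1 and Sf3b2 were 0.11 and 0.21 and not called.

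The gap between super-enhancer knockout and wild-type cells also differed between the 2 inductions in 9 members (edgeR, all adjusted p under 0.05 with TMM). Such a difference was called for 63.0% of all genes. The knockout effect under PlaB minus that under RA was 1.22 for Sf3b1, 0.42 for Sf3b2, 0.84 for Sf3b4, 2.26 for Sf3a1, 4.14 for Sf3a2 and 0.35 for Sf3a3. It was -1.66 for Sf3b5, -1.18 for Sf3b6 and -1.02 for Phf5a. The difference of Sf3a3 was not called without SE KO PlaB replicate 2, with RLE size factors or DESeq2, at 0.22 with each of the last 2, or with upper-quartile factors, at 0.012. With upper-quartile factors Sf3b2 was not called either, at 0.081. The summed level of the 2-cell-like markers also differed between these groups, at 539.9 to 597 CPM in SE KO PlaB, 63.7 to 70.1 CPM in SE KO RA and 378 to 391 CPM in Dux KD RA, and its part was not tested. With 2 libraries a group, no sample could be checked for standing apart within its group.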

How the results depend on the processing

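Of 2343 values recomputed for 198 results, those of the 8 members called in PlaB against DMSO kept direction and call under every scaling, without the filter, with DESeq2 and without any library. Fold changes that turned direction did so mostly with the other control. With untreated ESCs as the control, log2 fold changes turned to -0.73 for Sf3b4 and 0.70 for Sf3b6 in PlaB, -0.059 for Sf3b1, -0.57 for Sf3b4, 0.19 for Sf3b6 and -0.83 for Sf3a2 in SE KO PlaB, -0.17 for Sf3b1, -0.25 for Sf3b2, 0.68 for Sf3b6 and -1.36 for Sf3a2 in Dux KD PlaB, and -0.54 for Sf3b1 and -1.43 for Sf3a2 in RA. With DMSO as the control they turned to 0.63 for Sf3b4, 0.34 for Sf3b5, -1.27 for Sf3b6, 0.41 for Sf3a1 and 1.16 for Sf3a2 in Dux OE, 0.0033 for Sf3b1, -1.08 for Sf3b6 and 0.36 for Sf3a2 in Dux R70A OE, and 0.0045 for Sf3b2, 0.60 for Sf3b4, -0.28 for Sf3b6, 0.012 for Phf5a, 0.21 for Sf3a1 and 0.76 for Sf3a2 in Zscan4 OE. With upper-quartile factors, Sf3a3 turned to 0.29 in PlaB against DMSO and Sf3b2 to 0.055 in PlaB against RA, and with library size only Sf3a3 turned to 0.15 in PlaB against DMSO. A further 45 sign changes concerned values called under neither setting. The cause of these turns was not tested. In Zscan4 OE against ESC, 8 members were called, 5 with library size only and 3 against DMSO. In Dux R70A OE against ESC, 10 became 5 against DMSO, and in Dux KD Zscan4 OE against Zscan4 OE, 4 became 2 in a fit of only the groups compared. Leaving out 1 library at a time, which assumes that the lone replicate varies like the other groups, left 2 to 4 calls in Dux KD PlaB against DMSO, 3 to 5 in Dux KD RA against RA and 3 to 5 in SE KO Dux OE against Dux OE, and 8 to 9 in PlaB against DMSO. Over all genes tested, the deviations of same-numbered replicates had r from -0.0473 to 0.0237. Noise in genes of low counts can weaken such an r, so it showed no pairing but cannot exclude one. A replicate block changed no call (8 members in PlaB against DMSO). Among the recomputed fold changes, counting each once per setting, 58 gained and 42 lost a call under another setting, and 13 gained and 61 lost one without 1 library. Depth did not limit the members, which had at least 184 counts in each library, and each group held 2 libraries.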

Other observations

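Genes related to the members but outside the U2 particle were measured as well. SF3B also serves the minor spliceosome, which removes the rare U12-type introns. Of 8 genes particular to it, 3 were higher and 4 lower in PlaB than in DMSO, when 41.7% and 35.4% of all genes were, with a median log2 fold change of -0.18 against 0.22 over all genes. The highest was Zmat5 at 3.73 (SE 0.16, adjusted p = 8.8e-18) and the lowest Pdcd7 at -1.46 (SE 0.15, adjusted p = 1.7e-09). In Dux KD PlaB against DMSO, 3 were higher and 1 lower (17.7% and 17.1% of all genes), and in SE KO PlaB 1 was called, which was higher (29.6% of all genes), and none of those called in these 2 comparisons changed by 1 or more on the log2 scale.

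Sf3b3 shares its beta propeller fold with Ddb1, of the DDB1-CUL4 ubiquitin ligases, and Cpsf1, of the polyadenylation machinery. Both were lower in PlaB than in DMSO, Ddb1 with a log2 fold change of -2.86 (SE 0.12, adjusted p = 4.5e-18) and Cpsf1 of -1.48 (SE 0.09, adjusted p = 2.5e-14), whereas that of Sf3b3 was 0.16 and not called.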
